A study of Homo sapiens with 4 samples.

Results

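The nuclear receptors are a family of transcription factors, most of which bind DNA as pairs and are switched by small lipid-soluble molecules such as retinoic acid, vitamin D, fatty acids and steroids. The genes examined were 45 nuclear receptor genes taken from a list of symbols, of 19974 protein-coding genes on chromosomes 1 to 22 and X in RefSeq GRCh38.p14, and all 45 were found there. A gene counted as carrying a peak if a p63 summit, the position of highest tag pile-up in a peak, lay in its span or within 50 kb of either end.

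The data came from HSC-5, a cell line established from a human squamous cell carcinoma of the skin and grown in DMEM with 10% FBS, with no added agent or second genotype named. Chromatin crosslinked with formaldehyde was immunoprecipitated (IP) with an antibody to p63 and sequenced. The labels give 2 p63 IP samples and 2 input samples, and the files of the 2 IPs, which are peak lists, were analysed here. Whether these were separate cultures is not stated in the labels. Peak lists hold no expression, so the skin identity of the line could not be checked against markers.

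p63, a relative of p53, is the transcription factor that keeps up the basal layer of stratified epithelia. It binds paired sites whose core is often CATG. In skin, retinoid receptors and the vitamin D receptor act in keratinocyte growth and differentiation, PPARs in lipid metabolism and barrier formation, and the glucocorticoid receptor in restraint of inflammation and proliferation. RXR proteins are the shared partner with which RAR, VDR, PPAR and thyroid hormone receptors bind DNA.

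Replicate 1 held 4077 peaks from 12687447 IP tags kept after duplicate removal, and replicate 2 held 2934 peaks from 868393. The kept depth of replicate 2 was 6.84% of that of replicate 1. Replicate 1 was placed on genes as GRCh38; replicate 2 uses another numbering and was compared only by the spacing of its peaks. With 1 placed library and no second condition, no test over samples exists, and the comparisons below are counts set beside those of all genes. Intervals on tag counts are exact Poisson intervals at 95% and cover counting error only.

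Of the 45 receptor genes, 11 had a replicate 1 peak and 34 had none. The share among receptors was 24.4%, and among all protein-coding genes 19.9% had a peak by the same rule. Receptor genes are longer than most, with a median span of 53.4 kb against 24.2 kb for all genes. Among all genes, the share with a peak was 14.6% in the shortest of 10 equal bands of span and 33.0% in the longest. Summing the shares of all genes in each receptor's band gave 10.4 receptor genes, close to the 11 seen. As a family, receptors therefore carried p63 peaks about as often as other genes of their length.

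Other rules gave other counts beside their own background. With the span alone 5 receptors had a peak, against 7.12% of all genes, and within 10 kb 9 had one, against 10.2%. Within 100 kb 16 had one, against 30.0%. With peaks of a score of 100 or more 3 had one, against 4.63%, and with a fold of 10 or more 11 had one, against 18.7%. When a peak counted for its nearest gene only, 7 had one, against 10.5%. Genes of like span gave 5.3 with the span alone, 14.5 within 100 kb and 6.91 by nearest gene. They gave 2.37 at a score of 100 or more and 9.8 at a fold of 10 or more. The 10 kb window was where receptors stood farthest above genes of like span, with 9 against 6.52.

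The 11 genes were RXRA with 5 peaks, NR6A1 with 4, VDR, THRB and ESRRG with 2 each, and PPARD, ESR2, ESRRA, ESRRB, NR4A1 and NR5A1 with 1 each. At least 2 peaks were held by 5 of the 45 receptors, and by 3.72% of all genes, with no allowance for span. By span, THRB, ESRRG and NR6A1 fall in the longest of the 10 bands, RXRA in band 9 and VDR in band 8. The share with at least 2 among genes of like span was not computed. The assignments of peaks to the 11 genes rest on 20 distinct peaks, since 1 peak lay in the windows of both NR5A1 and NR6A1. Of the 20 peaks, 8 had their summit inside a receptor gene. For 15 of the 20 the receptor was the nearest protein-coding gene, and these peaks belonged to 7 receptors.

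**Figure D1:**
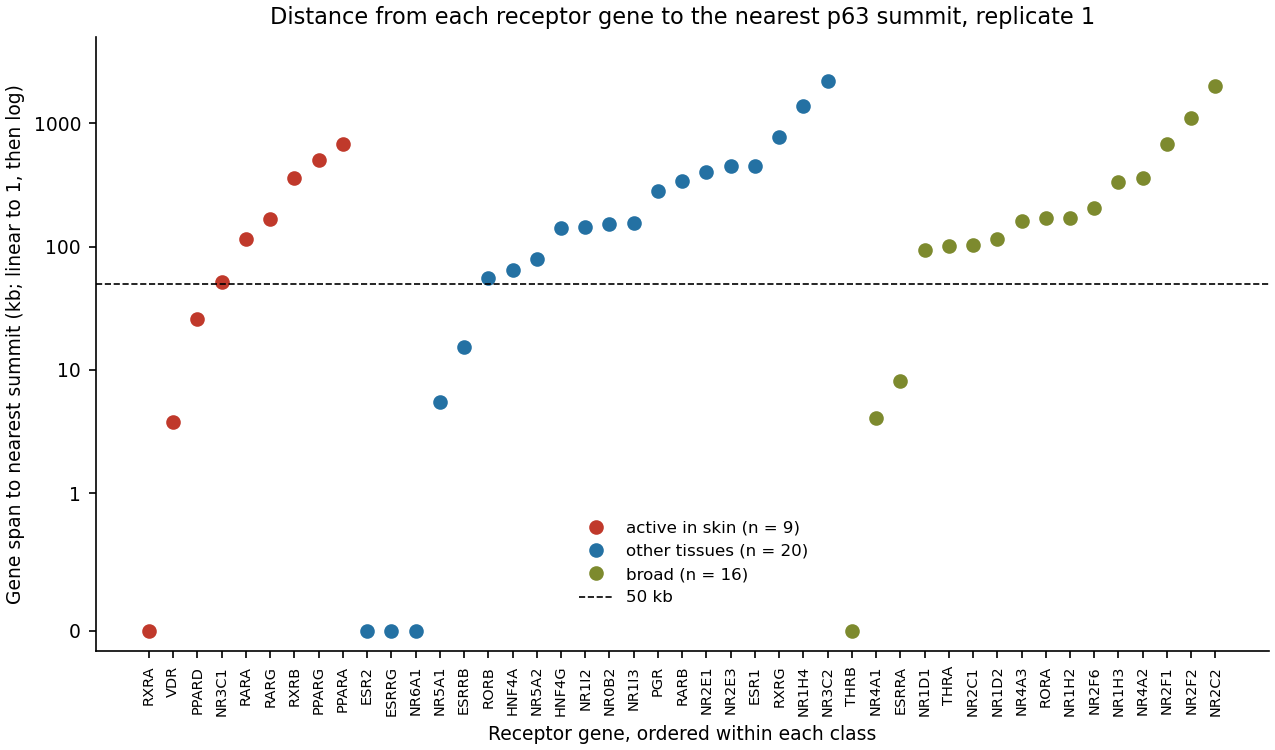
Distance in kb from the span of each of the 45 receptor genes to the nearest replicate 1 summit, on an axis linear to 1 kb and logarithmic above, ordered within each class; 0 means a summit inside the gene. Summits lay inside RXRA, ESR2, ESRRG, NR6A1 and THRB, and the points below the dashed line are the 11 genes with a summit within 50 kb.

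RXRA, which encodes the retinoid X receptor that dominates in epidermis, held more peaks than any other receptor. It lies at chromosome 9, 134326455 to 134440585, a span of 114.1 kb. Its peaks held 25, 17, 15, 16 and 8 tags in order along the gene. The first stood before the gene, the next 3 inside it and the last after it.

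The RXRA peak of 25 tags (16.2 to 36.9) lay at chromosome 9, 134324009 to 134324289, with its summit 2.28 kb before the first RefSeq start. It was 281 bp wide with a deposited fold of 20.4, and 87.6% of all replicate 1 peaks on these chromosomes had fewer tags. Its interval overlapped those of the 3 peaks inside the gene and lay wholly above that of the peak after it.

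The peak of 17 tags (9.90 to 27.2), at 134380024 to 134380342, had its summit 0.90 kb downstream of the second RefSeq start of RXRA. Its deposited fold of 9.93 was the lowest of the 5, and 18.1% of all peaks had a lower one. The peak of 15 tags (8.40 to 24.7) followed at 134393193 to 134393537 with a fold of 16.91, and that of 16 tags (9.15 to 26.0) at 134412477 to 134412706 with a fold of 16.09. These 3 peaks inside the gene did not differ in tags beyond counting error. The last peak was found at 134474920 to 134475152, 34.4 kb past the gene. It held 8 tags (3.45 to 15.8), the lowest number in the whole list.

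The 5 RXRA summits spanned 151 kb, with gaps of 56.0, 13.2, 19.2 and 62.5 kb between neighbours. The median gap on chromosome 9 was 189 kb. RXRA was singled out for the number of summits in its window, so short gaps follow from that count and add nothing to it. The next summits outside the window lay 452 kb before the gene and 171 kb after it. RXRA was the nearest protein-coding gene to all 5. Together the 5 peaks held 81 tags, which was 31.4% of the 258 tags in all 20 receptor peaks.

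Only 15 of 19974 protein-coding genes (0.0751%) had at least 5 summits within 50 kb, RXRA among them, a count looked up after the RXRA value was seen. In the span band of RXRA, genes of 83.7 to 152 kb, 2 of 1997 had so many, RXRA itself and ADGRF5. The 15 genes include overlapping ones such as SCHIP1 and IQCJ-SCHIP1, with 9 summits each, so they are not 15 separate places. NR6A1, with 4 peaks, was among 37 genes (0.185%) with at least 4. In the span band of NR6A1, the longest, 16 of 1997 genes had at least 4.

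**Figure D2:**
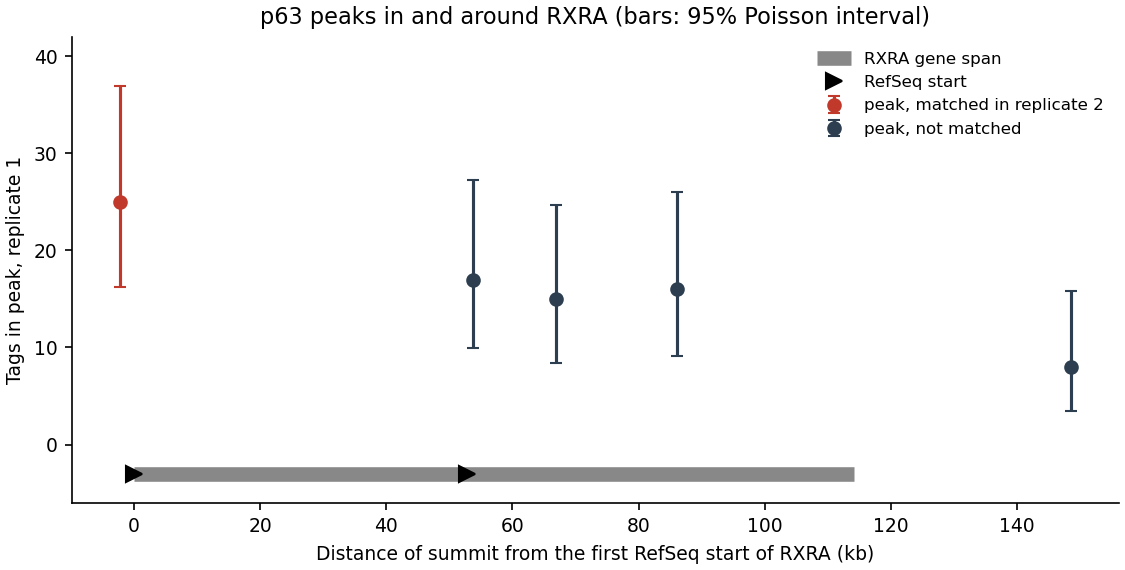
Replicate 1 peaks around RXRA by distance of the summit from the first RefSeq start (kb) and by tags, with 95% Poisson intervals; the grey bar is the gene and the triangles its RefSeq starts. The peak of 25 tags before the gene is the 1 with a spacing match in replicate 2, and the 3 peaks inside the gene hold 15 to 17 tags.

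The promoter windows of RXRA are shown because its peaks flank them, along with that of ESR2, whose peak came closest to a start of all receptor peaks. Each runs from 250 bases before to 50 after a RefSeq start in GRCh38.p14, with any CATG in capitals. The first RXRA window is chr9:134326205-134326504 and the second chr9:134379045-134379344, both on the plus strand. The ESR2 window is chr14:64338501-64338800 on the minus strand.
RXRA, first start: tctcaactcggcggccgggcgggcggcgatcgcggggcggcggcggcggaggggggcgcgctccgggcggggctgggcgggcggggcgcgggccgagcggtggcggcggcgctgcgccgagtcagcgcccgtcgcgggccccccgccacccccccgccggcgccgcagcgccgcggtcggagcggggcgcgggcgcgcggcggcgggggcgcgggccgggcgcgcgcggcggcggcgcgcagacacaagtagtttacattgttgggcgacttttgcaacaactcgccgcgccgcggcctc
RXRA, second start: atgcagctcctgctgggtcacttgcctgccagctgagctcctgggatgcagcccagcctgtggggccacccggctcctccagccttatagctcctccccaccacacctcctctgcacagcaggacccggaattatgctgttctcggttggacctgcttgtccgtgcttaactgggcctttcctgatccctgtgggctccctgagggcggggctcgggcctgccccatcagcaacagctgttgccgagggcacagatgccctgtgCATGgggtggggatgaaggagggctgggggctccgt
ESR2, start nearest its peak: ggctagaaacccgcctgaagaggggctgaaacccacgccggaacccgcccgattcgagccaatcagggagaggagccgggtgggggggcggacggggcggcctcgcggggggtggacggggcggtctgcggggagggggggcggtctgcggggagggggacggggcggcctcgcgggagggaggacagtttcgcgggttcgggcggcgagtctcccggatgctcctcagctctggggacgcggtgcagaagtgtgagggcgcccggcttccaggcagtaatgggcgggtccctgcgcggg

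The windows of the first RXRA start and of ESR2 held no CATG, and that of the second RXRA start held 1. Their GC contents were 84.0% and 64.7% for RXRA and 74.3% for ESR2. The median was 58.7% for all 35116 promoter windows and also 58.7% for the 95 receptor windows. No replicate 1 peak overlapped a promoter window of any of the 40 receptors matched by symbol to the table of RefSeq promoters. A pair of CATG cores with 6 bases between them reads the same on both strands. This pair was found in 0 of 95 receptor promoter windows and in 0.373% of all windows. At so low a share, 95 windows are too few for a count of 0 to stand out. A looser form, with each core reduced to a C and a G with any 2 bases between, contains that pair. The looser form was in 71.6% of receptor windows and 74.0% of all. The sequence under the peaks was not read, so these windows say nothing of the motif at the receptor peaks.

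Of the RAR, VDR, PPAR and thyroid hormone receptor genes, VDR and THRB had 2 peaks each, PPARD had 1 and the others none. Genes of like span gave 0.51 for the 2 thyroid hormone receptors and 0.78 for the 3 PPARs, with 1 gene seen in each. In the span band of VDR 22.4% of genes had a peak, and in those of the RARs 17.8% to 33%. VDR, the vitamin D receptor, had a peak of 9 tags (4.12 to 17.1) 3.79 kb beyond the end of its span with the lower coordinates, at chromosome 12, 47837592 to 47837818. Its other peak, of 8 tags (3.45 to 15.8), lay 18.8 kb beyond the opposite end, at 47923610 to 47923827. Both VDR peaks were near the lowest tag count of the list, with folds of 10.89 and 11.35, and none lay inside the gene.

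THRB, a thyroid hormone receptor, had 2 peaks of 10 tags each (4.8 to 18.4). The first lay inside the gene at chromosome 3, 24487655 to 24487906, 7.02 kb downstream of a RefSeq start, with a fold of 18.17. The second lay 22.1 kb past the gene at 24094929 to 24095112, with a fold of 16.76. The paralogue THRA had no summit within 100 kb, its nearest being 101 kb away.

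PPARD, the fatty acid receptor PPAR-delta, had 1 peak of 11 tags (5.49 to 19.7) at chromosome 6, 35454088 to 35454387. This summit lay 26.1 kb after PPARD and inside FANCE, a DNA repair gene. PPARG, which drives fat cell and sebocyte differentiation, and PPARA, which acts in fatty acid oxidation, had nearest summits 503 and 681 kb away.

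Of the retinoic acid receptors none had a peak. The nearest summits lay 115 kb from RARA, 168 kb from RARG, the main RAR of epidermis, and 341 kb from RARB. Those of the other retinoid X receptors lay 356 kb from RXRB and 778 kb from RXRG. Among the 6 retinoid receptors, RXRA was thus the single gene with peaks by the 50 kb rule, where genes of like span gave 1.31.

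The estrogen receptors and their relatives had a peak at 4 of 5 genes, where genes of like span gave 1.42, a grouping singled out after the values were seen. ESR2, estrogen receptor beta, held a peak of 8 tags (3.45 to 15.8) at chromosome 14, 64337921 to 64338104, with its summit 0.52 kb downstream of a RefSeq start. ESRRA, which promotes mitochondrial gene expression, had the highest peak of this group, with 18 tags (10.7 to 28.4) and a fold of 27.23 at chromosome 11, 64324805 to 64325083. The ESRRA peak lay 8.15 kb after the gene and nearer to PRDX5, a peroxiredoxin gene.

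ESRRB, a pluripotency factor in mouse stem cells, had a peak of 10 tags 15.3 kb after the gene. ESRRG had peaks of 8 tags inside the gene and 9 tags 18.6 kb before it. With a span of 634.5 kb, ESRRG is among the longest receptor genes. ESR1, estrogen receptor alpha, has a span of 472.9 kb and no summit within 446 kb.

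The highest receptor peak by tags lay near NR6A1, the germ cell nuclear factor gene. It held 37 tags (26.1 to 51.0) with a fold of 31.12 and a width of 384 bp at chromosome 9, 124818004 to 124818387. The summit stood 46.9 kb before NR6A1 and nearer to OLFML2A. The peaks inside NR6A1 held 11 tags each (5.49 to 19.7), with folds of 7.71 and 10.25. The fourth, of 9 tags (4.12 to 17.1), lay in ADGRD2, 5.55 kb after NR5A1, the steroidogenic factor gene, and 41.6 kb after NR6A1. NR5A1 and NR6A1 are neighbours whose windows overlap, so this peak counts for both.

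NR4A1, an immediate early gene, had a peak of 8 tags (3.45 to 15.8) 4.05 kb after the gene, nearer to ATG101. NR4A2 and NR4A3 had none, with nearest summits at 359 and 160 kb. NR3C1, the glucocorticoid receptor gene, had a summit 52.1 kb away with 9 tags (4.12 to 17.1), inside ARHGAP26, and was the first gene outside the window. The next was RORB at 55.8 kb with 12 tags, while the farthest summit inside the window was the NR6A1 peak at 46.9 kb.

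**Figure D3:**
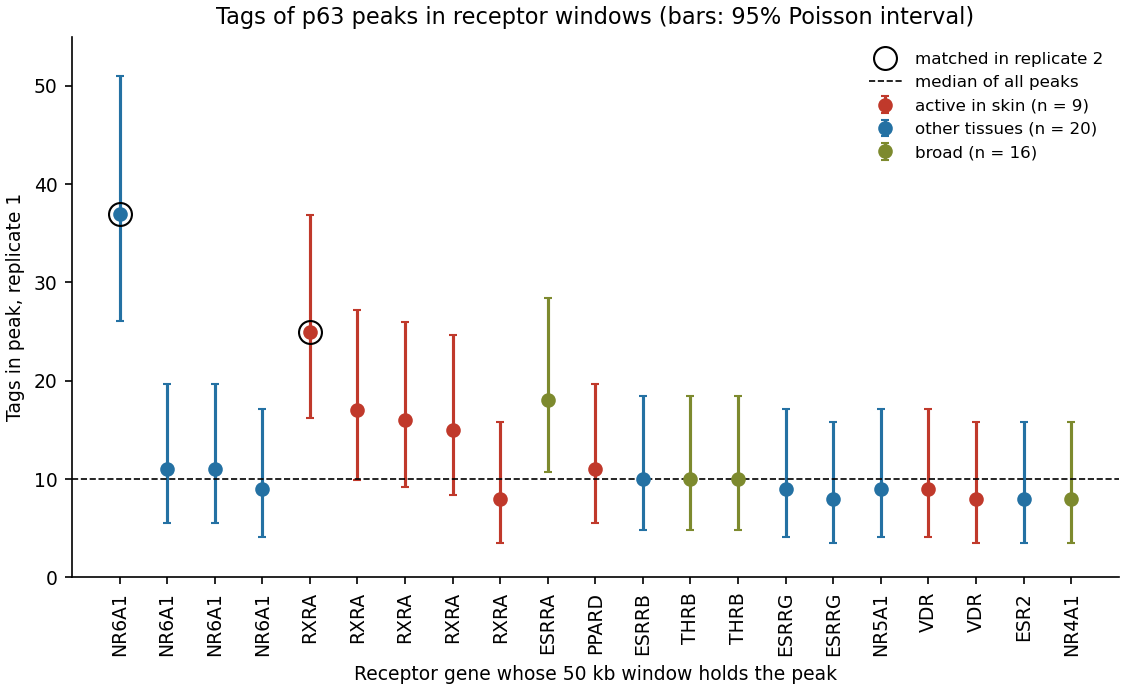
Tags in each replicate 1 peak, with 95% Poisson intervals, for the 11 receptor genes with a peak, coloured by class; the dashed line is the median of all peaks, and the peak shared by NR5A1 and NR6A1 is drawn for both. Most points lie near the median of 10 tags, and the ringed peaks of NR6A1 (37 tags) and RXRA (25 tags) are those with a match in replicate 2.

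The 34 genes without a peak covered several subfamilies entirely. Genes of like span gave 0.99 for the 4 NR1D and ROR genes and 0.555 for the 2 HNF4 genes. They gave 1.31 for the 7 NR2C, NR2E and NR2F genes and 0.921 for the 3 corticoid and progesterone receptor genes. These numbers are too small for a count of 0 to stand out. The clock genes NR1D1 and NR1D2 and the related RORA and RORB had none, nor had HNF4A and HNF4G, which act in liver and gut. None was found for the oxysterol and bile acid receptors NR1H2, NR1H3 and NR1H4 or the xenobiotic receptors NR1I2 and NR1I3. NR2C1, NR2C2, NR2E1, NR2E3, NR2F1, NR2F2 and NR2F6, the corticoid and progesterone receptor genes NR3C1, NR3C2 and PGR, and NR5A2 and NR0B2 also had none. Of all receptors 29 had no summit within 100 kb. The median distance from a receptor gene to its nearest summit was 152 kb, against 235 kb for all protein-coding genes. Distance was taken from the gene span, so longer genes such as receptors tend to lie nearer by construction. No distance for genes of like span was computed. The absence of a listed peak means that none passed the authors' threshold at this depth.

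The receptor peaks were of ordinary height. Their tags ran from 8 to 37 with a median of 10, which was also the median of all 3965 replicate 1 peaks on these chromosomes. Their median width was 248 bp against 245 bp, and their median fold 15.21 against 13.43. A deposited score of 100 or more was reached by 3 of the 20 peaks, near RXRA, ESRRA and NR6A1, and by 15.4% of all peaks. The 2475 peaks within 50 kb of any protein-coding gene are the closer comparison. Their medians were 10 tags, 243 bp and a fold of 14.72, and 18.4% reached a score of 100 or more.

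Receptors active in skin were compared with those of other tissues, by classes assigned from general knowledge of where each gene is expressed. The classes were chosen with earlier results of these data known, so they are not independent of the peaks. Of the 9 skin receptors (RXRA, RXRB, RARA, RARG, VDR, PPARA, PPARD, PPARG and NR3C1), 3 had a peak, which is 33.3%. Of the 20 receptors of other tissues 5 had one (ESR2, ESRRB, ESRRG, NR5A1 and NR6A1), which is 25%. Of the 16 broadly expressed receptors 3 had one (THRB, ESRRA and NR4A1), which is 18.8%. Genes of like span gave 2.12, 5.10 and 3.19. The skin and other-tissue shares differed by 8.33 percentage points, and without RXRA alone both were 25%. Without all members on chromosome 9, RXRA among them, the difference was 7.35 percentage points. It then set 2 of 8 skin receptors (25%) against 3 of 17 of other tissues (17.6%). With RXRG and RARB placed among the skin receptors and no gene left out, the difference was -0.505 percentage points. Neither RXRG nor RARB had a peak, so this move could only lower the difference. No move of a receptor with a peak was tried.

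Counted as peaks per Mb of gene window, skin receptors had 8 peaks in 1.64 Mb, or 4.88 per Mb (2.11 to 9.62). Receptors of other tissues had 8 peaks in 5.63 Mb, or 1.42 per Mb (0.613 to 2.80), and broad receptors 4 in 3.02 Mb, or 1.33 per Mb (0.361 to 3.39). Over the windows of all protein-coding genes the density was 1.33 per Mb (1.28 to 1.38). The interval of the skin receptors lay above this density and overlapped that of the other tissues. Without RXRA the skin density was 2.11 per Mb (0.434 to 6.16), from 3 peaks, and its interval held the density of all genes. Neighbouring peaks are not independent, so these intervals are too narrow.

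**Figure D4:**
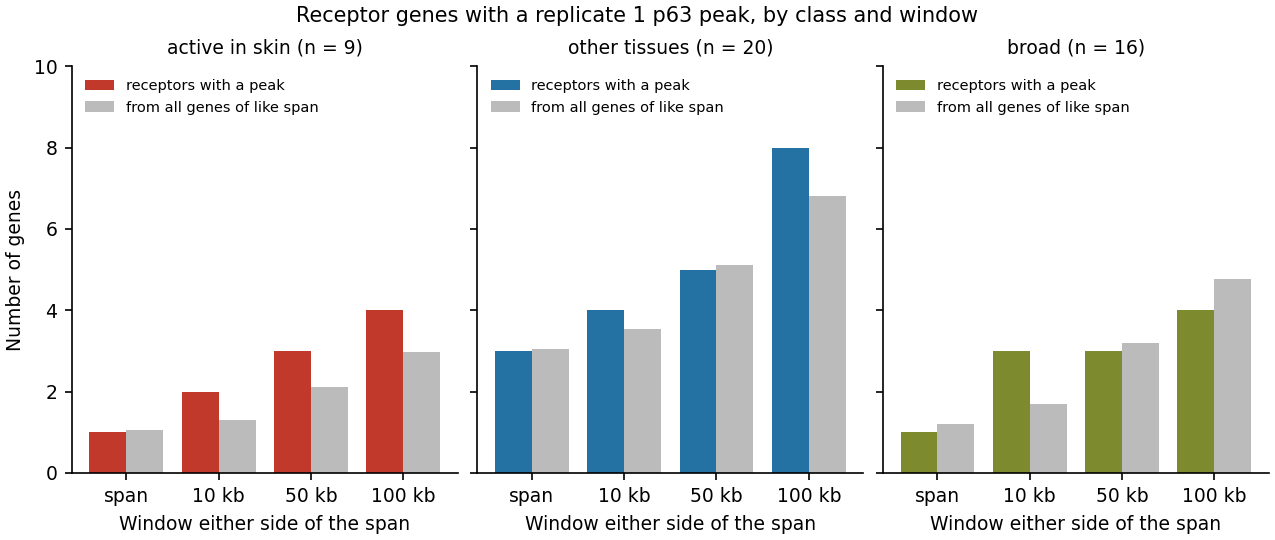
Number of receptor genes with a replicate 1 peak (coloured bars) and the number given by all genes of like span (grey bars), for 4 windows from the span alone to 100 kb, by class. At 50 kb the bars are 3 and 2.12 for skin, 5 and 5.10 for other tissues, and 3 and 3.19 for broad receptors.

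A larger share of genes had a peak on chromosome 9 than elsewhere, and RXRA and NR6A1, the receptors with the most peaks, lie on it. Of all chromosome 9 genes 28.0% had a peak, against 19.6% of genes elsewhere. Of the 5 receptors on chromosome 9, RXRA, NR5A1 and NR6A1 had a peak, while RORB and NR4A3 had none. On the other chromosomes 8 of 40 receptors had one. The part of the chromosome in the RXRA and NR6A1 counts was not tested.

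**Figure D5:**
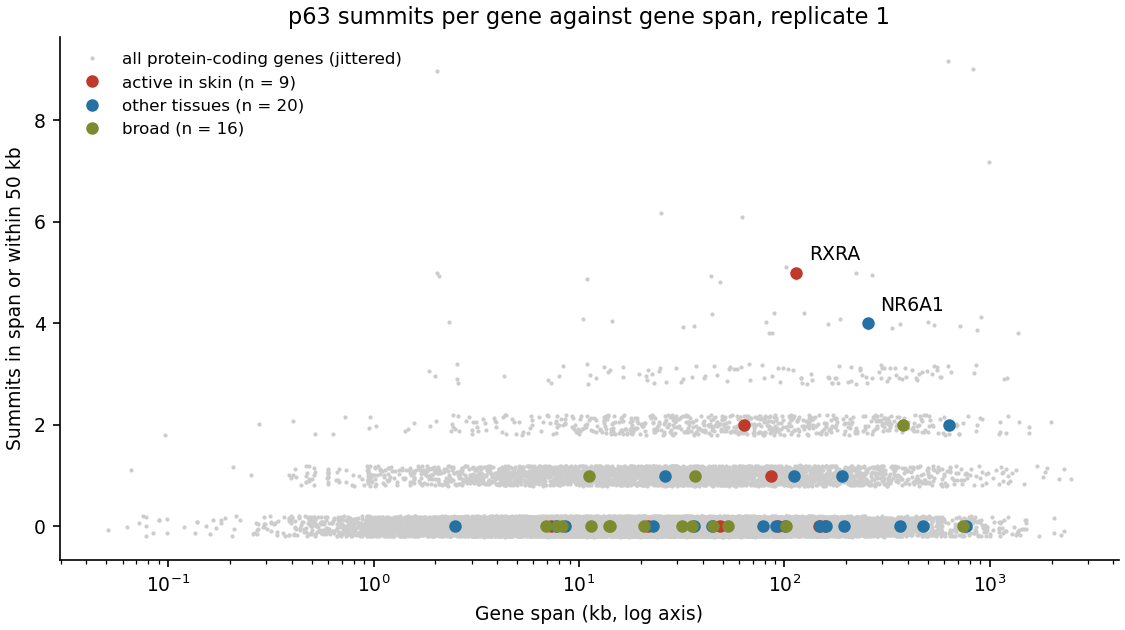
Number of replicate 1 summits in or within 50 kb of each protein-coding gene (grey, jittered) and each receptor gene (coloured by class) against gene span in kb on a log axis. RXRA, at 5 summits, and NR6A1, at 4, stand above the other receptors, of which none had more than 2.

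Spacing matches tied 2 of the 20 receptor peaks to replicate 2. A match needs the same offset between the lists, within 100 bp, at 2 or more other peaks under 10 Mb away. The RXRA peak before the gene matched a replicate 2 peak of 7 tags (2.81 to 14.4) with 2 supporting pairs, the fewest the rule allows. The NR6A1 peak of 37 tags matched a peak of 6 tags (2.20 to 13.1) with 7 supporting pairs. The other 18 receptor peaks, all under 25 tags in replicate 1, were not matched.

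Over all peaks under 1 kb wide, 210 of 3867 (5.43%) were matched. The share was 3.97% of peaks under 25 tags and 23.6% of those with 25 to 40 tags. The peaks inside RXRA, of 15 to 17 tags, fall in the first group.

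Genes that supply, break down or assist receptor signals were counted by the same rule. Of 59 such genes 14 had a peak (23.7%), where genes of like span gave 12.9. Among 15 genes of retinoid supply and breakdown 3 had one (2.67 from span), among 7 of vitamin D metabolism and transport 2 (1.57), and among 10 of glucocorticoid metabolism and response 1 (2.13). PPAR targets and fatty acid transport genes had 2 of 11 (2.06), and coactivators and corepressors 6 of 16 (4.46). The widest gap from the number that span gave was that of the coactivators and corepressors.

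Of these 59 genes 5 (8.47%) had a summit inside or within 10 kb, against 10.2% of all protein-coding genes, so the named genes are no sign of an excess. DHRS3, a retinaldehyde reductase that limits retinoic acid formation, had a peak of 33 tags (22.7 to 46.3) with a fold of 44.55, 0.26 kb outside the gene. NCOA3, a nuclear receptor coactivator, had 24 tags (15.4 to 35.7) at 8.57 kb, and NCOR1, a corepressor, 10 tags (4.8 to 18.4) inside the gene. The fatty acid transporter CD36 held 12 tags and the lipid droplet gene CIDEC 8 tags. CYP24A1, the vitamin D breakdown enzyme and a classical VDR target, was named after its value was seen: it had a peak of 32 tags (21.9 to 45.2) 19.6 kb outside the gene.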

How the data were processed

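MACS 1.4.2 was run on each IP with its own control file at a p cut-off of 1e-05, keeping 1 tag per position, per the file headers, which do not say which input sample was the control behind the folds. FastQC, Trimmomatic and Bowtie and the build hg19 are named in the submitters' processing notes. Tags are the authors' whole-number counts per peak, with no scaling. The score deposited beside them is 10 times minus the log10 of the caller's p-value. The deposited fold is the ratio of IP to scaled local control. False discovery rates were deposited in percent, at most 0.18 in replicate 1. Positions and widths are in bp, per the file headers. Folds and scores are the authors' and were used only within a list.

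Replicate 1 held 83 peaks on contigs named as in GRCh38 and 0 beyond the last protein-coding gene of a chromosome, while replicate 2 held 0 and 31. Replicate 1 was therefore read as GRCh38, and replicate 2 was matched by spacing alone (offset at most 5 Mb, supporting pairs 2 kb to 10 Mb away, widths under 1 kb). The summit is the peak start plus the deposited offset. The 112 replicate 1 peaks off chromosomes 1 to 22 and X were not used. Sheets with the same replicate 1 peaks were not used.

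Genes, starts and promoter sequences came from RefSeq (GRCh38.p14), and 40 of 45 receptors matched the promoter table. Span bands are 10 equal groups of 19974 genes. The members, classes and lists were chosen with earlier results of these data known. All receptors with a peak are named; of the assisting genes, those within 10 kb by rule, and CYP24A1, ALDH1A1 and GPS2 after their values were seen. A grouping by DNA-binding sequence was planned and not run, since protein sequences were not used here. Scripts used Python 3.11.15, numpy, pandas, scipy and matplotlib and were tested on simulated data. Alternatives were windows, thresholds, nearest gene, class membership, span bands and match settings.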

Additional observations from a re-analysis of the deposited data

How the results depend on the processing

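The count of 11 receptor genes became 5 with the gene span alone, 3 at a score of 100 or more and 7 when a peak counted for its nearest gene only; fewer peaks or smaller windows are counted there by construction. It stayed within 1.5 times under 10 and 100 kb, a fold of 10 or more and without peaks over 1 kb wide. The ratio of receptors to genes of like span, 1.06 as reported, was 0.944 with the span alone, 0.877 without members on chromosome 9 and 0.985 without RXRA, and lay from 1.01 to 1.38 otherwise. The difference between skin and other-tissue shares, 8.33 percentage points, was 2.22 within 10 kb and by nearest gene and 4.44 within 100 kb. It was 6.11 at a score of 100 or more and -3.89 with the span alone. It was 7.35 without members on chromosome 9, 0 without RXRA and -0.505 with RXRG and RARB among the skin receptors. Leaving out chromosome 9 or RXRA was chosen after seeing the data. The 14 assisting genes became 4 with the span alone, 5 within 10 kb, 24 within 100 kb, 5 at a score of 100 or more and 8 by nearest gene. Receptor peaks matched in replicate 2, 2 as reported, were 1 at a tolerance of 50 bp, 4 with 1 supporting pair and 0 at a score of 100 or more in both lists. The 2 added pairs lay in RXRA, with offsets that differed by -206 and 498 kb from that of the RXRA peak before the gene. Those differences are far beyond the tolerance of 100 bp, so the 2 pairs add no match at the offset of that peak. The motif count of 0 promoter windows became 68 with the looser motif, by construction. The count of 11 uses replicate 1 alone, so leaving out replicate 2 left it at 11; without replicate 1 no value could be had, because replicate 2 was not placed on genes. No paired analysis was possible because the result comes from no test and the inputs were not used here. Of peaks under 25 tags in replicate 1, 3.97% had a match; the part of replicate 2 depth, at 6.84% of replicate 1, was not tested.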

Other observations

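Just outside the receptor windows, a peak of 18 tags (10.7 to 28.4) with a fold of 23.34 lay 58.2 kb after PPARD, inside TEAD3, and matched a replicate 2 peak of 4 tags with 3 supporting pairs. Of the genes that assist receptor signals, the highest peaks of 4 were matched in replicate 2; 3 of these genes are named after their values were seen. They belonged to NCOA3 (24 tags in replicate 1 and 7 in replicate 2), ALDH1A1, a retinoic acid synthesis enzyme (19 and 6), CYP24A1 (32 and 4) and GPS2, a corepressor subunit (15 and 4). NCOR1 had 4 peaks within 50 kb, as many as NR6A1.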
